A study of Mus musculus with 6 samples.

Results

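The subject here is a set of 49 transcription factor genes that pattern the mesenchyme and the limbs of the embryo. They were followed across 3 wild-type and 3 Rap1 knockout samples of mouse embryonic fibroblasts. Each gene was read by its brightest probe among those whose RefSeq accession names it. Of the 49 members, 47 had a probe, and Dlx6 and Nkx3-2 were not matched to one and were not analysed here. The probes of 37 members stood clearly above background on every array of 1 genotype or both. They entered the comparison, beside 19652 features of the whole array. Another 8 members were above background on some arrays only (Tbx4, Lhx8, Foxf1, Pax3, Six2, Nkx2-5, Gata4 and Hand2). Isl1 and Hand1 were not well above background on any array.

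RNA was labelled with Cy3 and hybridised to 1-colour Agilent mouse arrays, 1 array per sample. The cells of both groups, wild type and knockout, were infected to express SV40 large T antigen, which immortalises fibroblasts by binding p53 and Rb, and Cre recombinase, and both were grown in medium with puromycin. Rap1 is the telomere protein encoded by Terf2ip, and in the series Cre removes a floxed exon 3 of that gene. The labels give neither the age of the embryos nor whether the 3 samples of a group came from separate embryos. The p-values here rest on the spread among these samples alone.

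T-box, homeodomain, forkhead, Pax and related factors bind DNA and give mesenchymal cells their position and fate in the embryo. Tbx5 marks and starts the forelimb, while Pitx1 and Tbx4 mark the hindlimb, and Pax1 and Pax9 mark the sclerotome, from which the vertebrae form. Fibroblasts taken into culture are known to keep much of the factor code of the body site they came from.

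A level here is the log2 processed signal of a probe less that array's 75th percentile, so that 0 is the brightness of that percentile. A level of 1 probe can be compared between arrays, not with the level of another probe. A difference is knockout minus wild type on the same log2 scale, where 1 is a doubling. Between 61.7% and 67.1% of probes were well above background on an array. Wild-type arrays 2 and 3 were nearly alike. Their log2 difference had an SD over features of 0.26, against 0.83 to 1.25 for every other pair. Whether they carried separate cultures or the same RNA was not determined. The counts of calls and the smallest adjusted p-values are therefore also given with these arrays averaged and counted as 1 sample. The arrays lay on 2 slides, and wild-type array 1 and knockout array 1 shared the slide called slide 1 here. Terf2ip read −1.74 ± 0.08 (SD, n = 3) in wild type and −8.36 ± 0.63 in knockout cells with all 3 arrays at background, at least 37.7-fold lower (limma adjusted p = 0.00804, and 0.0666 with wild-type arrays 2 and 3 averaged). The fitted difference was −6.62, and −2.61 with normexp correction (adjusted p = 0.00838 in limma). Whether its probe lies in the removed exon was not determined.

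Between genotypes, 0 of the 37 measured members passed a limma adjusted p under 0.05. Over all features 0.0102% passed, all of them lower in knockout cells. The 8 members whose groups did not overlap were those that reached an unadjusted p under 0.05. Tbx20, Foxc2, En1, Gata6 and Prrx1 read lower on every knockout array than on every wild-type array, and Foxc1, Tbx18 and Prrx2 read higher. Those 8 of 37 compare with 17.3% of all features whose groups did not overlap (5.86% lower and 11.4% higher) and 10.3% with an unadjusted p under 0.05. With a mean difference of at least 2-fold as well, 7 members remained, 4 lower and 3 higher, beside 4.3% of all features (2.62% lower and 1.68% higher). En1 and Tbx20 entered the comparison through the wild-type arrays alone and so had to differ. Among the 29 members above background on all 6 arrays, 5 met both conditions, beside 3.14% of such features.

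The members were divided about evenly in direction, 18 above 0 and 19 below. Their median difference was −0.12, against 0.07 over all features, and it was 0.05 with normexp correction and quantile normalisation, so it had no stable sign. Adjusted p-values of the members ran from 0.321 to 0.980 in limma without a block. With the slide as a block they ran from 0.0951 to 0.977. With wild-type arrays 2 and 3 averaged none lay under 0.934. In that limma fit 7 of 37 members had an unadjusted p under 0.05, beside 687 of all 19652 features. En1 and Tbx20, kept through the wild-type arrays alone, were among the 7. The differences were then −2.86 for En1, −3.29 for Tbx20, −3.14 for Foxc2, −2.60 for Gata6, −0.84 for Prrx1 and 1.16 for Foxc1.

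**Figure D1:**
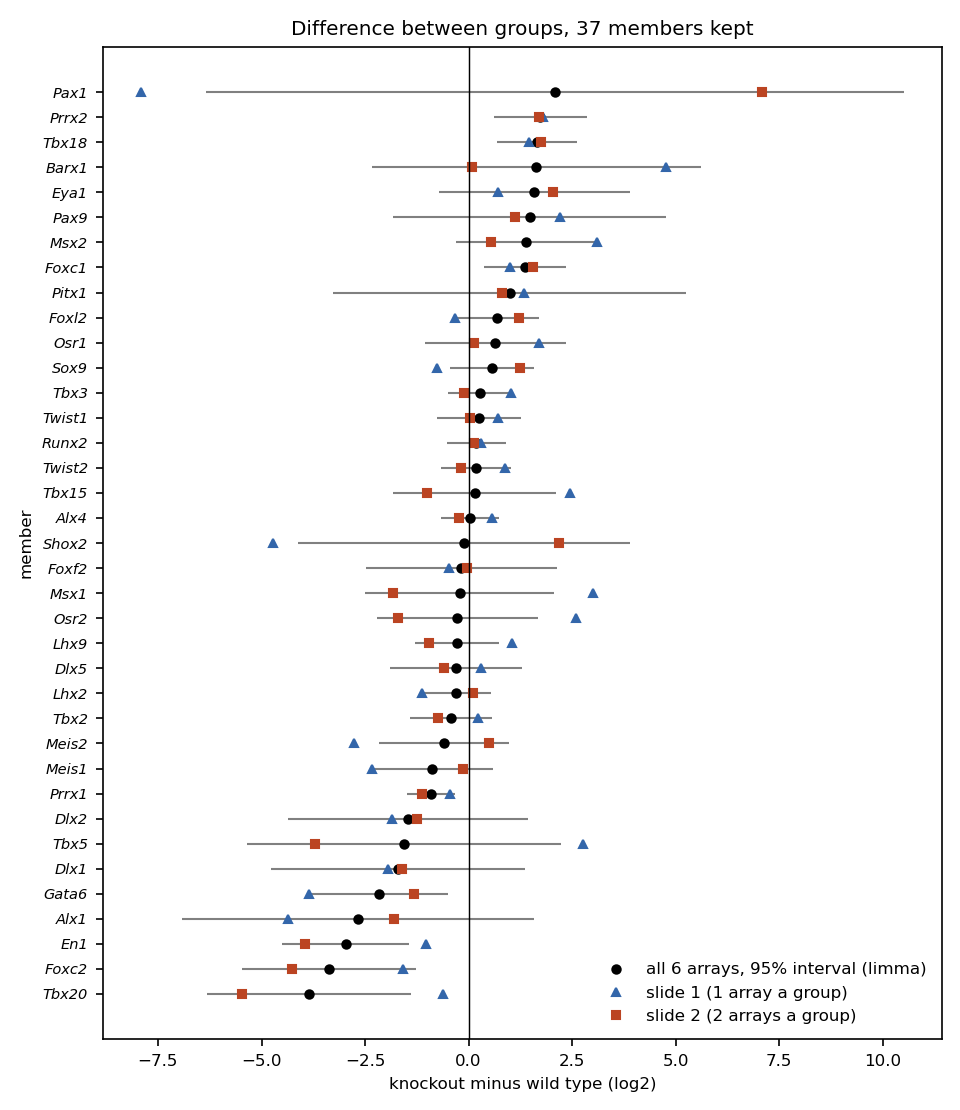
Difference between groups for the 37 measured members, knockout minus wild type (log2), with the 95% interval from limma as a grey line, the difference on slide 1 (1 array a group) as a triangle and on slide 2 (2 arrays a group) as a square. The intervals of 8 members, from Tbx20 at −3.86 to Prrx2 at 1.73, lie off 0, and the slides gave opposite signs for 16 of 37.

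Among the limb field factors, 7 of the 8 measured members had a difference below 0, beside 8740 of all 19652 features, and 0 passed the test. Of those 7, Tbx5, Meis2, Shox2, Lhx2 and Lhx9 had opposite signs on the 2 slides. Tbx5, the T-box factor of the forelimb, read −0.06, 1.13 and 0.95 in wild type (arrays 1, 2 and 3, as in every list of levels) and 2.70, −1.13 and −4.22 in knockout cells. The highest and the lowest Tbx5 levels of the series were thus both in knockout cultures, 122-fold apart, with the wild-type arrays between them. A second Tbx5 probe kept that order, at −1.80, −5.02 and −8.84 in knockout cells, where the last was not above background, and its highest wild-type level was −2.83. The mean difference was −1.56 (SE 1.59, limma adjusted p = 0.666), 2.76 on slide 1 and −3.72 on slide 2.

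Pitx1, the homeodomain factor of the hindlimb, read −2.25, 0.20 and 0.17 in wild type and −0.91, −2.54 and 4.55 in knockout cells. Knockout array 3 stood 20.4-fold above the next array and the other knockout arrays lay within or below the wild-type range. Tbx4, the hindlimb counterpart of Tbx5, was at −5.36 on knockout array 3 and was at background on the other 5, where it read between −9.49 and −8.07. Knockout array 3 therefore held the lowest Tbx5 and the highest Pitx1 and Tbx4 of the 6. Pitx1 differed by 0.99 between the groups (SE 1.78, limma adjusted p = 0.814), and without knockout array 3 by −1.10.

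Shox2, a homeodomain factor of the proximal limb skeleton, read −3.75, −5.19 and −5.24 in wild type and −8.48, −4.86 and −1.20 in knockout cells. It was highest on knockout array 3, 5.85-fold above the next array, and not well above background on knockout array 1. Isl1, which acts at the start of the hindlimb field, was not above background anywhere.

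**Figure D2:**
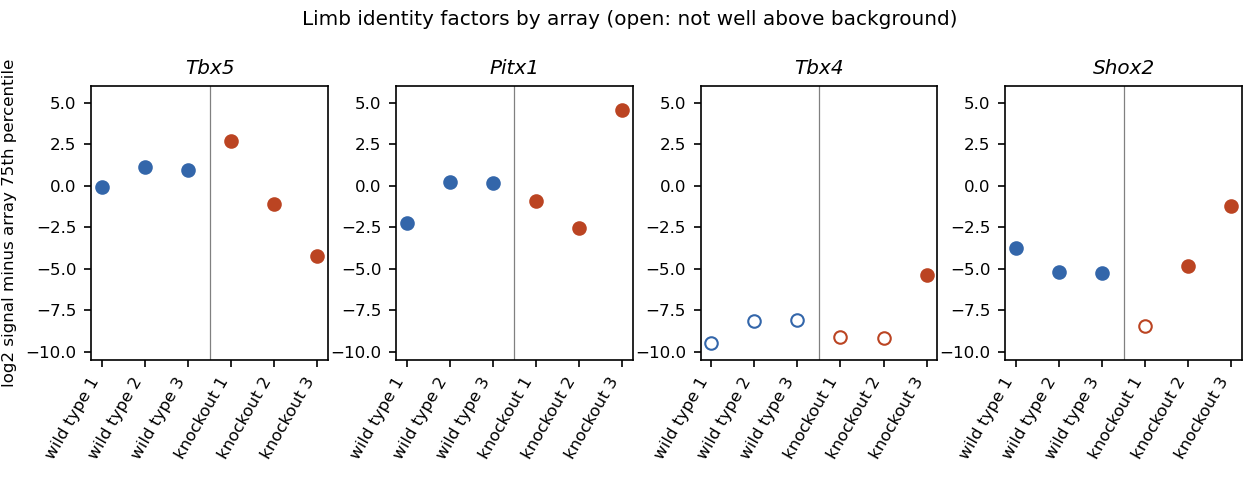
Levels of Tbx5, Pitx1, Tbx4 and Shox2 (log2 signal minus the array's 75th percentile) on each of the 6 arrays, blue for wild type and red for knockout, with open points not well above background. Knockout array 3 has the lowest Tbx5 at −4.22 and the highest Pitx1 at 4.55, and it is the only array with Tbx4 above background.

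En1, the homeodomain factor of the ventral limb ectoderm and of dorsal dermal precursors, read −5.83, −5.14 and −5.20 in wild type and −6.86, −8.90 and −9.32 in knockout cells. Every wild-type array was above background and no knockout array was. By the signal floor, the mean of En1 over all arrays of a group was at least 3.00-fold lower in knockout cells. The fitted difference was −2.97 (SE 0.64, limma adjusted p = 0.321), −1.03 on slide 1 and −3.94 on slide 2. It was −0.39 with normexp correction, and the bound does not hold on slide 1 or with that correction. Knockout array 1 lay closest to the wild-type levels.

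Meis1 and Meis2, which partner Hox proteins in the proximal limb, moved with single cultures. Meis1 read −0.71 on wild-type array 1 and between −3.19 and −2.86 on the other 5 arrays. Its second probe gave −3.50 on wild-type array 1 and between −6.11 and −5.08 on the others. That probe, unlike the brighter one, separated the groups, with a difference of −1.24. Meis2 read 2.20, 1.21 and 1.05 in wild type and −0.55, 1.44 and 1.80 in knockout cells, where only knockout array 1 lay below the wild-type range. The Meis2 difference was −0.59 (SE 0.66, limma adjusted p = 0.692), and 0.13 without knockout array 1. Lhx2 and Lhx9, LIM homeodomain factors of the growing limb bud, ranged over 2.20-fold and 2.47-fold across the 6 arrays, and the groups overlapped for both.

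In the T-box family outside the limb pair, 0 of 5 passed the test, and 1 gene separated the groups in each direction. Tbx18, a factor of the somites, the epicardium and the ureter mesenchyme, read −0.76, −1.69 and −1.74 in wild type and 0.69, −0.40 and 0.48 in knockout cells. The groups did not overlap, and a second probe separated them as well, with a difference of 1.61. The fitted difference was 1.65 (3.15-fold, SE 0.41, limma adjusted p = 0.372), with 1.45 and 1.76 within slides 1 and 2, and it was 1.49 once wild-type arrays 2 and 3 were averaged.

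Tbx20, a T-box factor of the developing heart, read −6.57, −3.15 and −3.18 in wild type and −7.19, −7.91 and −9.39 in knockout cells. No knockout array was above background, while wild-type array 1 lay only just above the knockout levels. By the signal floor, the mean of Tbx20 over all arrays of a group was at least 6.38-fold lower in knockout cells. The fitted difference was −3.86 (SE 1.03, limma adjusted p = 0.413), −0.61 on slide 1 and −5.48 on slide 2. It was −1.02 with normexp correction, and the bound does not hold on slide 1 or with that correction. Its other probe, made to another transcript, was not well above background on any array.

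Tbx15, which acts in dermis and scapula, read between 0.82 and 1.26 in wild type and 3.28, 0.51 and −0.07 in knockout cells. Knockout array 1 was 4.05-fold above the next array, and the other knockout arrays lay below the wild-type range. Tbx3, a transcriptional repressor that acts in limb and mammary development, read 1.39, 1.81 and 1.83 in wild type and 2.41, 2.03 and 1.39 in knockout cells. The Tbx3 difference was 0.27 (SE 0.32, limma adjusted p = 0.713). Tbx2, its close relative, varied over 2.92-fold, and both overlapped between the groups.

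Of the 8 general mesenchymal factors, Prrx1 and Prrx2 separated the groups in opposite directions. Prrx1, a homeodomain factor of limb and head mesenchyme, read 1.57, 1.95 and 1.96 in wild type and 1.12, 0.66 and 1.00 in knockout cells. Every knockout array lay below every wild-type array, and the same held for each of the 3 other Prrx1 probes, with differences from −1.03 to −0.80. The fitted difference was −0.90 (1.87-fold, SE 0.24, limma adjusted p = 0.423).

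Prrx2, its paralogue in the same tissues, read 4.01, 2.81 and 2.95 in wild type and 5.80, 4.56 and 4.60 in knockout cells. Every knockout array lay above every wild-type array. The fitted difference was 1.73 (3.31-fold, SE 0.47, limma adjusted p = 0.429), with 1.79 and 1.70 within slides 1 and 2, and it was 1.54 once wild-type arrays 2 and 3 were averaged. Prrx2 was read by 1 probe only.

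Twist1 and Twist2, bHLH factors that hold mesenchyme undifferentiated, varied little, by 2.77-fold and 2.01-fold across the 6 arrays, with overlapping groups. Msx1 and Msx2, homeodomain repressors that act in limb, tooth and skull, varied by 9.98-fold and 11.2-fold. Msx1 read −3.64, −2.03 and −2.06 in wild type and −0.63, −3.81 and −3.95 in knockout cells, so that knockout array 1 was the highest and the other knockout arrays the lowest of the 6. Msx2 read −3.86, −1.93 and −1.81 in wild type and −0.75, −0.37 and −2.29 in knockout cells, with only knockout array 3 inside the wild-type range.

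Alx1, a homeodomain factor of the facial mesenchyme, read −4.50, −2.53 and −2.93 in wild type and −8.85, −7.44 and −1.64 in knockout cells. Knockout arrays 1 and 2 were not well above background and knockout array 3 was the highest of all, at least 37.4-fold above the lowest by the signal floor. The mean difference was −2.66 (SE 1.78, limma adjusted p = 0.549), and −0.52 with normexp correction. Alx4, a paralogue that shapes the skull and the anterior limb, ranged over only 1.67-fold across the arrays.

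The craniofacial Dlx pair Dlx1 and Dlx2, neighbouring homeobox genes of the first pharyngeal arch, were both lowest on knockout array 1. Dlx1 read −4.81, −2.09 and −2.04 in wild type and −6.75, −2.12 and −5.21 in knockout cells. Dlx2 read −2.33, −0.21 and 0.03 in wild type and −4.18, 0.34 and −3.03 in knockout cells. Knockout array 1 was at background for Dlx1. For both genes, knockout array 2 lay within or above the wild-type range and wild-type array 1 lay below the other wild-type arrays. Their differences were −1.71 (SE 1.28, limma adjusted p = 0.580) and −1.45 (SE 1.21, limma adjusted p = 0.611).

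Barx1, which acts in stomach mesenchyme and in molar teeth, was not well above background on wild-type array 1, at −9.24. On the other 5 arrays it read between −4.48 and −2.05. With wild-type array 1 held at its signal floor, the range of Barx1 over all arrays was at least 35.6-fold. Dlx5, a factor of arch and bone, was above background on all arrays but knockout array 2, with levels from −7.54 to −4.96. Lhx8, a LIM homeodomain factor of the oral mesenchyme, was above background on wild-type array 1 alone, at −6.97.

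Among forkhead genes, Foxc1 and Foxc2 differed in opposite directions, as Prrx1 and Prrx2 did. Foxc1, which patterns somites, eye and skull, read 3.62, 2.41 and 2.39 in wild type and 4.63, 4.05 and 3.84 in knockout cells. Foxc2, its paralogue in somites and lymphatic vessels, read 0.63, 1.93 and 2.01 in wild type and −0.96, −0.70 and −3.87 in knockout cells. The groups did not overlap for either gene. Foxc1 differed by 1.37 (2.58-fold, SE 0.41, limma adjusted p = 0.469), 1.00 on slide 1 and 1.55 on slide 2. Foxc2 differed by −3.37 (10.3-fold, SE 0.88, limma adjusted p = 0.404), with −1.58 and −4.26 within slides 1 and 2, and by −2.35 without knockout array 3, which held its lowest level.

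Foxf1, a factor of gut and lung mesenchyme, read −4.02, −6.62 and −6.99 in wild type and −7.44, −2.31 and −8.06 in knockout cells, and was above background on wild-type arrays 1 and 2 and knockout array 2. Foxf2, its paralogue in gut and palate, read 1.38, 0.00 and 0.14 in wild type and 0.91, 1.95 and −1.87 in knockout cells. Both were highest on knockout array 2 and next on wild-type array 1. Foxl2, a factor of ovary and eyelid, stayed between −5.73 and −3.94.

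**Figure D3:**
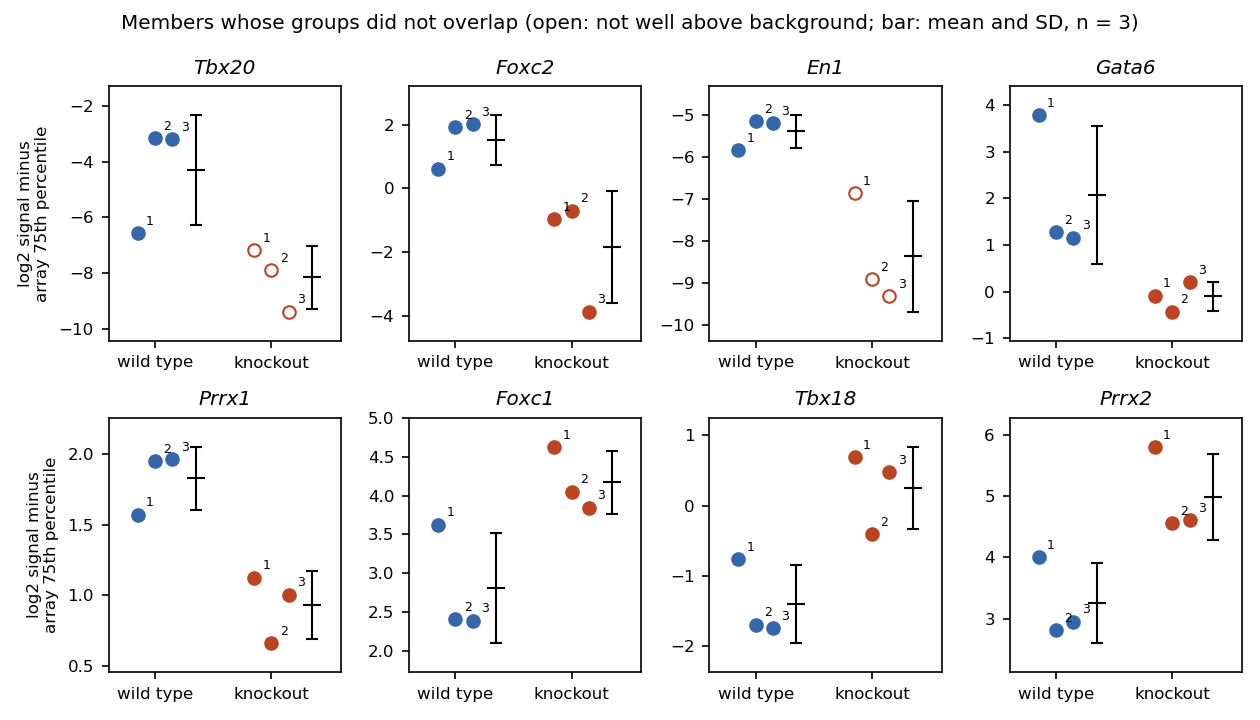
Levels (log2 signal minus the array's 75th percentile) of the 8 members whose groups did not overlap, 1 point per array with its replicate number, open where not well above background, and bars for the mean and SD (n = 3). Tbx20 and En1 have 3 open knockout points each, and the axes differ between genes.

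Pax1 had the widest range of the 47 members with a probe. It read 1.67, −9.10 and −8.10 in wild type and −6.25, 2.89 and −5.91 in knockout cells. A single culture of each genotype, wild-type array 1 and knockout array 2, was thus far above the others, and wild-type arrays 2 and 3 were not above background. The difference was 2.09 (SE 3.53, limma adjusted p = 0.800), −7.92 on slide 1 and 7.09 on slide 2, and 0.57 with normexp correction. A dimmer second Pax1 probe read −6.07, −9.53 and −4.65 in wild type and −9.13, −4.48 and −9.60 in knockout cells, and it was above background on wild-type arrays 1 and 3 and knockout array 2.

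Pax9, the partner of Pax1 in the sclerotome, read −3.65, −4.51 and −4.62 in wild type and −1.45, −0.68 and −6.23 in knockout cells. Knockout arrays 1 and 2 were the highest and knockout array 3 the lowest. Pax3, the factor of dermomyotome and neural crest, was above background on wild-type array 1 at −4.97 and on knockout array 3 at −1.97, and read between −9.18 and −8.39 on the other 4. Six2, a homeodomain factor of kidney and facial mesenchyme, was above background on the same arrays as Pax3, at −5.22 and −5.61. Eya1, a coactivator and phosphatase of kidney and ear development, read 0.43, −1.91 and −2.04 in wild type and 1.14, −1.41 and 1.52 in knockout cells, a difference of 1.59 (SE 0.96, limma adjusted p = 0.525) with overlapping groups.

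The skeletal regulators were among the steadier members. Sox9, the master factor of cartilage, read 1.28, 0.27 and 0.39 in wild type and 0.52, 1.81 and 1.32 in knockout cells. Runx2, the master factor of bone, read 0.32, 0.74 and 0.78 in wild type and 0.62, 1.30 and 0.49 in knockout cells. The groups overlapped for both, with differences of 0.57 (SE 0.43, limma adjusted p = 0.581) and 0.19 (95% interval −0.52 to 0.90). Osr1, an odd-skipped factor of intermediate mesoderm and connective tissue, read 0.66, −0.08 and −0.28 in wild type and 2.36, 0.37 and −0.48 in knockout cells, a difference of 0.65 (SE 0.71, limma adjusted p = 0.689). Osr2, its relative in palate and joints, read −3.75, −1.82 and −1.99 in wild type and −1.17, −3.52 and −3.70 in knockout cells. Osr1 and Osr2 were both highest on knockout array 1.

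Of the cardiac and lateral plate factors, only Gata6 was measured in full. Gata6, a zinc finger factor of endoderm, heart and visceral mesoderm, read 3.78, 1.27 and 1.15 in wild type and −0.09, −0.43 and 0.21 in knockout cells. The groups did not overlap, and wild-type array 1 stood 5.67-fold above the next array. Both other Gata6 probes also separated the groups, with differences of −2.08 and −1.09. The fitted difference was −2.17 (4.50-fold, SE 0.70, limma adjusted p = 0.473), with −3.86 and −1.32 within slides 1 and 2, and it was −1.32 without wild-type array 1 as well. Gata4, its partner in heart and visceral mesoderm, was above background on wild-type arrays 1 and 2 and knockout array 1, highest on wild-type array 1 at −4.78. Nkx2-5, the cardiac homeodomain factor, was above background on wild-type array 1 and knockout arrays 2 and 3, at −4.76, −5.17 and −5.62. Hand2, a bHLH factor of heart and posterior limb, was above background on knockout array 1 alone, at −6.76.

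Variation between arrays of 1 genotype was wide for these genes. Over the 3 knockout arrays, 20 of 37 members (54.1%) ranged over at least 4-fold and 8 (21.6%) over at least 16-fold. Over all features the shares were 9.88% and 1.82%. With normexp correction 15 members (40.5%) passed 4-fold, beside 3.61% of features, and with values at background held at the signal floor 17 (45.9%), beside 8.99%. Among probes above background on all 6 arrays the 4-fold share was 41.4% of 29 members and 7.65% of 18127 features. For 28 of 37 members the range over the knockout arrays was wider than the difference between the group means (75.7%), as it was for 83.9% of all features. Between wild-type array 1 and the mean of wild-type arrays 2 and 3 the median absolute difference was 1.12 for the members and 0.40 for all features. Between wild-type arrays 2 and 3 it was 0.11 for the members and 0.09 for all features. These shares describe the members and are not a test, since the members were chosen with earlier results of these data known.

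**Figure D4:**
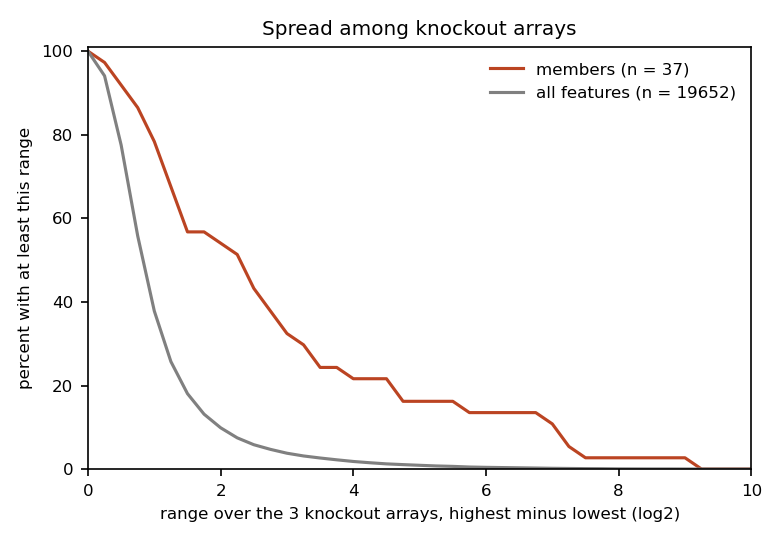
Percent of members (red, n = 37) and of all features (grey, n = 19652) whose range over the 3 knockout arrays, highest minus lowest in log2, is at least the value on the horizontal axis. At a range of 2, which is 4-fold, the curves stand at 54.1% and 9.88%.

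Some members stood out on a single array. By a threshold set after the values were seen, a member was counted for an array that was above background and at least 4-fold above every other array, with values at background held at that array's signal floor. This held for 6 of the 45 members above background on any array (13.3%), beside 2.23% of features. Pitx1, Pax3 and Shox2 stood out on knockout array 3, 6.67% of the members against 0.243% of features. Gata6 and Meis1 stood out on wild-type array 1, and Tbx15 on knockout array 1. No member stood out in this way on wild-type arrays 2 and 3 or on knockout array 2.

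**Figure D5:**
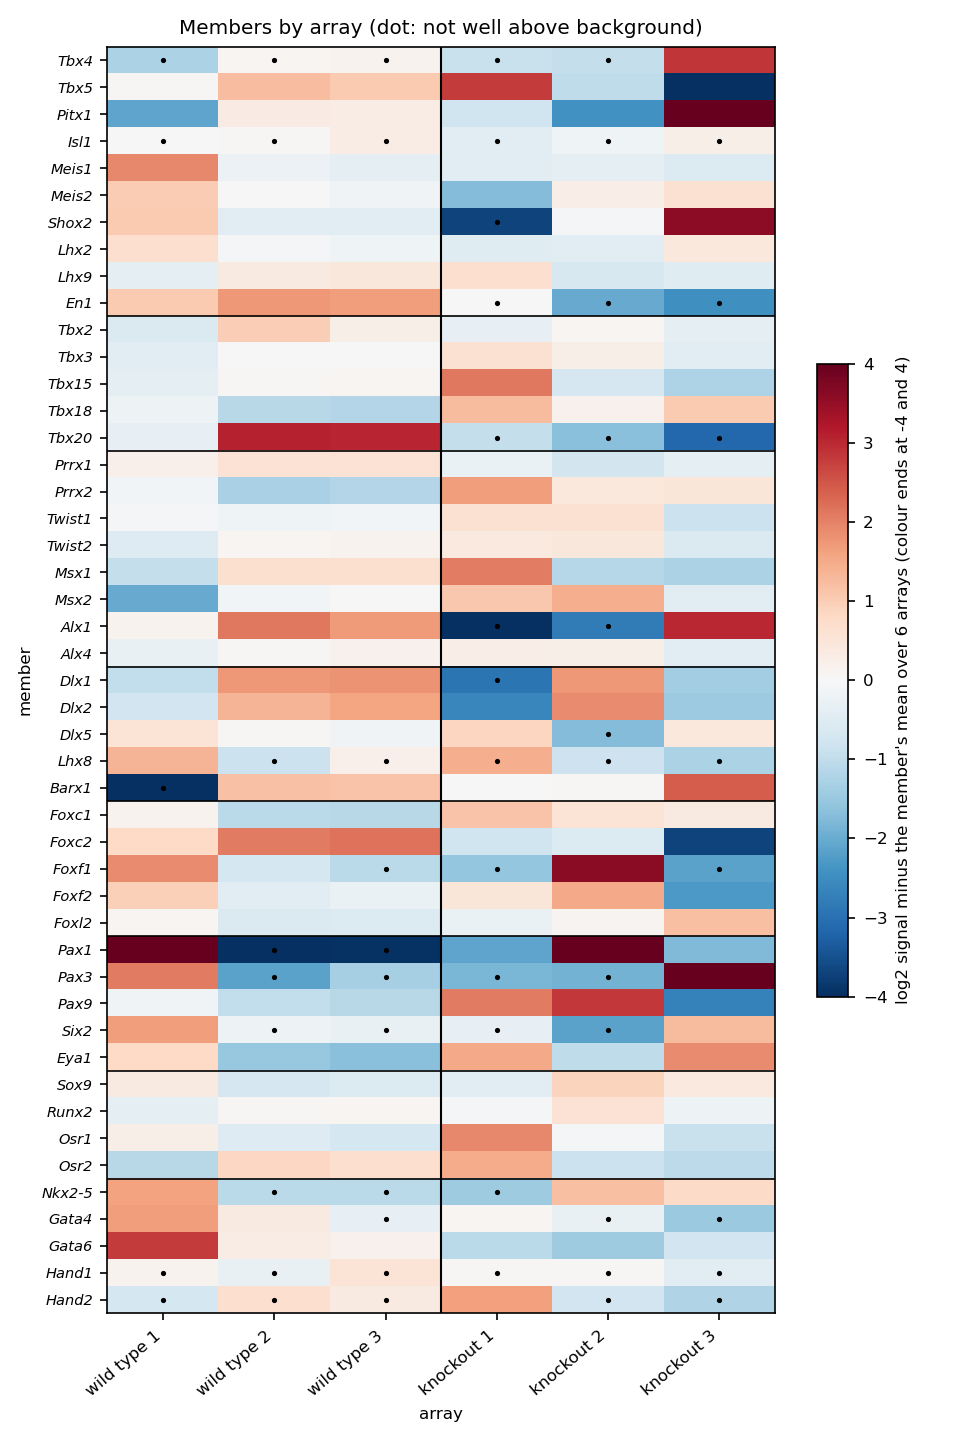
Level of the 47 members with a probe on each array, as log2 signal minus the member's own mean over the 6 arrays, in red above and blue below that mean, with a dot where the probe was not well above background. Wild-type arrays 2 and 3 look alike, and the 3 knockout columns differ from each other, as for Tbx5, Pitx1, Alx1 and Pax1.

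Markers of the labelled cell type were present. Of 12 fibroblast markers, 11 were above background on all 6 arrays, and their summed level was 9.28 to 9.41 in wild type and 8.43 to 9.23 in knockout cells. The lowest sum, 8.43, was on knockout array 3, beside 9.21 on knockout array 1. Single markers were not level between arrays. Dcn, a matrix proteoglycan, read 5.79, 3.54 and 3.13 in wild type and −5.47, 4.97 and 2.20 in knockout cells, and Lum, another, was not above background on knockout array 1. Thy1 and Pdgfra, surface proteins of fibroblasts, were lowest on knockout array 1 at −2.22 and −1.48 and separated the groups. Fn1 also read lower on every knockout array, with a difference of −0.31. In bulk RNA, fewer cells of a type and less RNA per cell cannot be told apart.

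For other cell types, the defining markers Pecam1, Cdh5 and Tie1 of endothelium, Ptprc and Tyrobp of blood, and Myod1, Myf5 and Myog of skeletal muscle were not well above background on any array. The summed level of 8 endothelial markers was −3.54 to −1.86 in wild type and −3.74 to −1.83 in knockout cells, and that of 7 blood markers was −2.94 to −1.88 and −3.05 to −1.04. For 6 skeletal muscle markers it was −1.04 to 1.24 and −2.19 to −0.45. For 9 heart muscle markers it was −1.01 to 1.35 in wild type and −1.47 to −1.34 in knockout cells, with Myh6 and Actn2 at background on every array and Nppb, a natriuretic peptide, lower on every knockout array (difference −1.16, limma adjusted p = 0.473). The summed level of the heart muscle markers was highest on wild-type array 1, largely through Tnnt2. Tnnt2, troponin T of the heart, read 1.13 there against −6.61 to −2.66 elsewhere. Myl7 and Myh7 were also highest on that array. Nppa was lowest there, and Tnni3 and Nppb lay below the other wild-type arrays. Gata6 and Gata4 were highest on the same array, and so was the summed level of the skeletal muscle markers. For 8 epithelial markers the summed level was 1.88 to 2.55 in wild type and 2.24 to 3.75 in knockout cells. Cldn4 was at background on every array, and 6 of the 8 were above it on all. Krt18, a keratin of simple epithelia, was higher on every knockout array, by 1.53 (SE 0.48, limma adjusted p = 0.473). Of the 6 epithelial markers measured, 2 had a difference above 0 and 4 below. Krt8, another keratin, differed by −1.74 with overlapping groups (limma adjusted p = 0.485). For 8 neural and neural crest markers the sum was 2.70 to 3.59 and 2.39 to 4.09. The part of these marker differences in the values of the patterning factors was not tested.

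Genes of limb signalling upstream and downstream of these factors formed a list of 30. Of these, 22 were measured and 0 passed the test, with a median difference of −0.15. The groups were separated for 5 of the 22, beside 17.3% of all features. Cyp26b1, which degrades retinoic acid in the distal limb, had the smallest p of the list. It read 0.53, −0.87 and −0.79 in wild type and −3.54, −2.91 and −3.68 in knockout cells, without overlap, and differed by −3.00 (SE 0.44, limma adjusted p = 0.159, and 0.499 with wild-type arrays 2 and 3 averaged), and by −2.30 with normexp correction. Fgf10, the mesenchymal signal that starts limb outgrowth under Tbx5 or Tbx4, read −2.34, −2.48 and −2.61 in wild type and −6.11, −5.14 and −4.28 in knockout cells. It differed by −2.70 (SE 0.46, limma adjusted p = 0.204), −3.77 on slide 1 and −2.17 on slide 2. The difference was −1.37 with normexp correction, and the adjusted p was 0.691 in limma with wild-type arrays 2 and 3 averaged. Fgf10 was lowest on knockout array 1, where Tbx5 was highest, and a link between the levels of the 2 genes was not tested. Nog, an inhibitor of BMP signals, was higher on every knockout array (limma adjusted p = 0.476), by 2.30 on slide 1 and 0.65 on slide 2, and by 0.34 over all arrays with normexp correction.

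Paralogues and partner factors of the members formed a list of 51 genes, of which 40 were measured and 0 passed. Of these, 27 were above 0 and 13 below, with a median difference of 0.29, and over all features 10912 were above 0 and 8740 below. Tcf15, a bHLH factor of the somites, read −6.68, −7.03 and −6.39 in wild type and −4.74, −5.26 and −4.43 in knockout cells, and differed by 1.89 (SE 0.31, limma adjusted p = 0.204, and 0.672 with wild-type arrays 2 and 3 averaged), and by 0.58 with normexp correction. Meis3, a paralogue of Meis1 and Meis2, read −2.28, −3.02 and −2.87 in wild type and −1.62, −1.30 and −1.16 in knockout cells, and differed by 1.37 (SE 0.28, limma adjusted p = 0.303). Hey1, a bHLH target of Notch, differed by 1.81 (SE 0.54, limma adjusted p = 0.467), 0.26 on slide 1 and 2.58 on slide 2. The groups did not overlap for these 3, which were named for the smallest p of the list. Of the 40 measured genes 8 separated the groups, beside 17.3% of all features. Tcf21, a bHLH factor of visceral mesoderm that the rule for named genes did not pick, was above background on wild-type array 1 alone, at 1.11, beside Gata6.

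Bone and cartilage genes that Runx2 and Sox9 act on formed a list of 22, of which 12 were measured and 0 passed, with 6 above 0, 6 below and a median difference of 0.13. Comp, a cartilage matrix protein, read −4.28, −5.55 and −5.72 in wild type and −2.16, −2.08 and −3.96 in knockout cells, and differed by 2.45 (SE 0.62, limma adjusted p = 0.388), and by 1.38 with normexp correction. Matn4, a matrilin, and Col9a2, a cartilage collagen chain, differed by 1.28 (SE 0.34, limma adjusted p = 0.413) and 1.19 (SE 0.41, limma adjusted p = 0.476). Matn4 differed by 0.28 with normexp correction. All 3, named for the smallest p of the list, read higher on every knockout array than on every wild-type array. Of the 12 measured genes 3 separated the groups, beside 17.3% of all features. Spp1, osteopontin, read 3.24 on knockout array 1 and between 6.25 and 7.87 on the other 5.

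Because Rap1 sits on telomeres, whose DNA repeats TTAGGG, that motif was searched on both strands in the RefSeq promoter windows of 300 bases, from 250 before to 50 after a gene's start (build GRCm38.p6). The table held windows for 30 of the 49 members, and 3 of their 31 windows (9.68%) had the motif, against 10.6% of all 32851 windows. The tandem TTAGGGTTAGGG was in 0 member windows and in 0.0122% of all windows. The 3 matches are shown for 30 bases around the motif, in capitals, since Prrx2 is among the members that separated the groups and Pax1 had the widest range.
Prrx2: gatttgggcaccCCCTAAactgcttctggg
Pax1: tctggcttaggtTTAGGGtggtgtatattc
Hand2: taacccgagcggCCCTAAagatgtagctgt
The stretch of Prrx2 lies at chr2:30845175-30845204, that of Pax1 at chr2:147364745-147364774 and that of Hand2 at chr8:57320959-57320988, all on the plus strand. In Prrx2 and Hand2 the motif is on the opposite strand, as CCCTAA. A match is a description of these letters and not a binding site.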

How the data were processed

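Expression was measured in 6 samples, 1 array each. Per the file headers, the scanner files hold spot intensity processed by the authors with Agilent's Feature Extraction software (10.5.1.1). A deposited value table gives log2 values for these arrays; the submitters' processing notes name limma. The table's knockout columns 1, 2 and 3 matched scanner files 2, 3 and 1 (r = 0.99999), so knockout numbers here are those of the scanner files.

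Control spots (1639 of 45018) and outlier spots (74 to 120 per array) were left out, except where a probe had no other spot, and no saturation was recorded. After averaging replicate spots there were 41174 probes, of which 23374 were named by RefSeq accession (gene table GRCm38.p6; the files name mm8). The highest-mean probe stood for a gene. Groups were compared with lmFit and eBayes of limma 3.58.1 (R 4.3.3), 2-sided and without a block, with Benjamini-Hochberg adjustment over all kept features, after a check on simulated data. A probe at background in a whole group has a bound: the brighter group's mean over a floor, which is averaged over the dimmer group's arrays and is on each the probe's own signal or the lowest signal above background, whichever is higher. Such a bound applies to group means on the main signal scale, not to single slides or normexp values. The number of arrays limits the precision. Members, lists and alternatives were chosen with earlier results of these data known. Given in full were members past the threshold, members without overlap and 2-fold apart, members above background in 1 group only, and in each role group the highest mean and largest difference; of each other list, the 3 smallest p. Other genes were named after their values were seen. Replicate numbers showed no pairing: same-numbered deviations correlated at 0.01, 0.05 and −0.08. Alternatives were normexp (offset 50, on the median spot signal, as the mean spot signal was not used here) with quantile normalisation, quantile or median scaling, the value table, other filters, mean of probes, blocks, a trended robust variance, wild-type arrays 2 and 3 averaged, single slides, and each array left out. The range counts with normexp and with the floor were added after seeing the data.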

Additional observations from a re-analysis of the deposited data

How the results depend on the processing

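No member passed the threshold under any alternative but slide 2 alone, where 4 of 37 did (En1, Tbx20, Prrx2 and Msx1) and 302 features passed; that slide holds no wild type beyond the near-alike arrays 2 and 3, so the counts cannot be read as changed genes. Limma called 2 features in all, 4 with the mean of a gene's probes, and 0 with probes above background on all 6 arrays, the replicate block, the slide block, or wild-type arrays 2 and 3 averaged (unadjusted p under 0.05: 1784, 2353, 3488 and 687). Leaving out single arrays gave 0 to 63 calls, 63 without wild-type array 1. Terf2ip had a difference of −6.62 under the replicate block (adjusted p = 0.170), the slide block (0.0635) and wild-type arrays 2 and 3 averaged (0.0666), −6.16 on slide 1, and −6.85 to −6.27 without single arrays, where the call was lost without wild-type array 2 (0.0767) or 3 (0.0593) or knockout array 1 (0.0602) or 3 (0.0562); the cause was not tested. It was −2.61 with normexp correction and −2.64 in the deposited value table, where En1 was −0.39 and −0.43 and Tbx20 −1.02 and −1.03. Members without overlap numbered 8 of 37, beside 17.3% of all features. Without single arrays they numbered 8 to 16. Without wild-type array 1 they numbered 14, beside 45.7% of all features. They numbered 14 without knockout array 1, beside 25.4%, and 16 without knockout array 3, beside 42.3%. On slide 2 they numbered 21, beside 57.9% of all features. Fewer arrays overlap less by construction. The members' median difference was 0.14 over probes above background on all 6 arrays, 0.31 on slide 1, and −0.14 to 0.27 without single arrays, 0.27 without knockout array 3.

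The slides gave opposite signs for 16 of 37 members. Among members given in full, signs turned for Meis2 on slide 2 (0.49), Msx1 with wild-type arrays 2 and 3 averaged (0.047) and on slide 1 (3.01), Pax1 on slide 1 (−7.92), Sox9 on slide 1 (−0.76), Tbx3 on slide 2 (−0.11) and Tbx5 on slide 1 (2.76). Without single arrays the range crossed 0 for Meis2 (−1.05 to 0.13), Msx1 (−1.30 to 0.36), Osr1 (−0.15 to 1.26), Pax1 (−0.90 to 5.51), Pitx1 (−1.10 to 2.44) and Tbx5 (−3.35 to 0.11). The median of all features was 0.07, 0.17 with median scaling and −0.08 with no filter on dim probes. The replicate block changed no member's call. Signal over background limits En1 and Tbx20 to bounds in knockout cells.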
